A study of Mus musculus with 6 samples.

Results

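The 10 genes described here encode regulators of the G1 phase of the cell cycle. They are the D-type cyclins Ccnd1, Ccnd2 and Ccnd3, their kinases Cdk4 and Cdk6, cyclin E1 (Ccne1) with its kinase Cdk2, and the CDK inhibitors Cdkn1a, Cdkn1b and Cdkn2c. They were chosen by name, and each was read from the brightest probe set that carries 1 gene symbol in the platform annotation. All 10 were found among the 22180 genes compared, and each had exactly 1 such probe set.

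Hearts of BALB/c donors had been placed into C57BL/6 recipients, a fully mismatched combination, and macrophages were sorted from the grafts on day 6. In the treated group (3 arrays) the recipients had received mTORi-HDL, an mTOR inhibitor carried in high-density lipoprotein nanoparticles, at 5 mg/kg on days 0, 2 and 5. In the control group (3 arrays) the recipients had no treatment and rejected the graft, and both groups shared the strain combination and the day of sorting. Each array was hybridised with material amplified from 15 ng of RNA. Recipients given empty lipoprotein are not among the samples used here, and drug and carrier cannot be told apart. The age of the mice and the sort markers are not given in the sources used here. The labels do not say whether a sample was 1 animal or a pool, and p-values measure only the spread between these samples, which may be technical.

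Array mTORi-HDL 1 stood apart from the others. Its SD over all probe sets was 1.68, where the other 5 arrays had 2.04 to 2.09, and it correlated with them at 0.708 to 0.741, where those 5 correlated with each other at 0.892 to 0.912. The members' results are therefore given with it and without it. The deposited values are log2 expression levels with no detection call, and the median gene lay between 4.03 and 4.38 on the 6 arrays, so a level near or below that range may hold little signal. Macrophage markers were present: Lyz2, lysozyme, lay between 10.80 and 11.62 on the 6 arrays. T cell markers were present too, with Cd3d, which encodes CD3 delta, between 8.37 and 11.45. Of the 14 T cell markers measured, all 14 were lower in treated samples, where 41.8% of all genes were. Their summed level (log2 of the sum) ranged from 11.39 to 12.85 on treated and from 13.61 to 13.84 on untreated arrays. The 11 macrophage markers measured had a summed level of 11.84 to 13.12 on treated and of 11.68 to 12.10 on untreated arrays. No marker of either list was at 0 on any array, but no probe set was. Each array's lowest value over all probe sets lay between 0.45 and 0.59, so this does not show detection. Because RNA was taken from whole sorted samples, fewer cells of a type and less RNA per cell cannot be told apart.

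Cells enter the division cycle in G1, when D-type cyclins accumulate in response to growth factors and activate CDK4 and CDK6. These kinases phosphorylate the retinoblastoma protein and its relatives, which releases E2F transcription factors; cyclin E with CDK2 then completes the step into S phase. INK4 inhibitors such as p18 (Cdkn2c) block CDK4 and CDK6, and the CIP/KIP inhibitors p21 (Cdkn1a) and p27 (Cdkn1b) act mainly on CDK2. In macrophages colony-stimulating factor 1 is a known inducer of cyclin D1, and mTOR complex 1 is known to promote cell growth and passage through G1 in many cell types.

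Cdk2, Cdkn2c and Cdk4 were the members with the smallest p, and each was lower on all 3 treated arrays than on any untreated array. The RefSeq promoter sequences (build GRCm38.p6) of these 3 genes are shown because they moved in the same direction. Each covers the 250 bases before an annotated start, 5′ to 3′ on the gene's strand, and motif matches are in capitals. The Cdk2 sequence is at chr10:128705052-128705301 on the minus strand, that of Cdk4 at chr10:127063285-127063534 on the plus strand, and those of the 2 starts of Cdkn2c at chr4:109666757-109667006 and chr4:109665373-109665622 on the minus strand.
Cdk2: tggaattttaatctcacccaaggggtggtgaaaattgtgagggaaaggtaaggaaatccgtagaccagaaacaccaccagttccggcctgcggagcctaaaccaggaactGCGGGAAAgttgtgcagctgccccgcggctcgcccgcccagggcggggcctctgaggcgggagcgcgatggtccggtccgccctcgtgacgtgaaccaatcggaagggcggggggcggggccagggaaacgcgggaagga
Cdk4: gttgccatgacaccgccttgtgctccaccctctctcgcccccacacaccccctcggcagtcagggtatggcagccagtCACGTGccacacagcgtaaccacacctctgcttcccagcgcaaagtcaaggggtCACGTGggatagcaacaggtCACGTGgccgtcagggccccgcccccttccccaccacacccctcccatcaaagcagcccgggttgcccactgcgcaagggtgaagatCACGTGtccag
Cdkn2c outer start: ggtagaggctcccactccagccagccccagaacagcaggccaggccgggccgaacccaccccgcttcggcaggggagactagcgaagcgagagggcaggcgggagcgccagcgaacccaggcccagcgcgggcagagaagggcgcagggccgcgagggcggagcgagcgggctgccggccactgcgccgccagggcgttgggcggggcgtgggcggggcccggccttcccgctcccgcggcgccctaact
Cdkn2c inner start: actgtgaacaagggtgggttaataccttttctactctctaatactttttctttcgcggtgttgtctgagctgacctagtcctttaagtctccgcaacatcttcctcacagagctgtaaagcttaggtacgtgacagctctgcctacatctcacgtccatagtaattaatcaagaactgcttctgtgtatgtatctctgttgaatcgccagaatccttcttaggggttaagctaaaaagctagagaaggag

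Windows of 250 bases before to 50 after the start were searched on both strands for 4 forms of the E2F motif (TTTGGCGC, TTTCCCGC, TTTCGCGC and TTTGCCGC), for the FOXO motif TGTTTAC and for the E-box CACGTG, the last chosen after the sequences were seen. RefSeq windows were matched by symbol for 8 of the 10 genes, 11 windows in all. An E2F form lay in 1 of the 11 windows, that of Cdk2, where TTTCCCGC on the opposite strand (printed as GCGGGAAA) began at position -140 relative to the start. Over all 32851 windows 2.26% held an E2F form. The E-box, the site type that MYC proteins bind, was found in 3 of the 11 windows and in 7.15% of all. Cdk4 held 4 copies, at positions -172, -118, -98 and -11, a number reached by 0.0244% of all windows; Cdk6 held 1 at -220 and the inner start of Cdkn2c held 1 after the start, outside the printed part. The FOXO motif was found in 1 of the 11 windows, in the outer promoter of Ccnd3, and in 3.65% of all. These are matches of letters and show no binding.

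The comparison asked how the G1 regulators differed between macrophages from mTORi-HDL-treated and from rejecting, untreated recipients. No member passed limma's test after Benjamini-Hochberg adjustment over all genes, and neither did any other gene: 0 of 22180 (0% of the background) had an adjusted p under 0.05 with all 6 arrays or without mTORi-HDL 1. Taking an unadjusted p under 0.05, 3 of the 10 members lay lower and 0 higher, where 3.07% of all genes (680) lay lower and 1.57% (349) higher. Under 5 of the alternative settings 2 members were left at that level, since Cdk4 no longer had an unadjusted p under 0.05. Without mTORi-HDL 1, 4 members lay lower and 2 higher at that level, against 3.51% and 3.47% of all genes. The groups did not overlap for 4 members, all lower in treated samples (5.53% of all genes lay apart and lower, 5.37% apart and higher); without mTORi-HDL 1 they did not overlap for 5 lower and 2 higher members (12.5% and 9.75% of all genes). The mean was lower in treated samples for 8 of 10 members with all arrays and for 6 of 10 without mTORi-HDL 1, where 41.8% and 53.4% of all genes had a lower mean. The median log2 fold change over the 10 members was -0.63 with all arrays and -0.17 without mTORi-HDL 1, beside 0.08 and -0.03 over all genes.

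**Figure D1:**
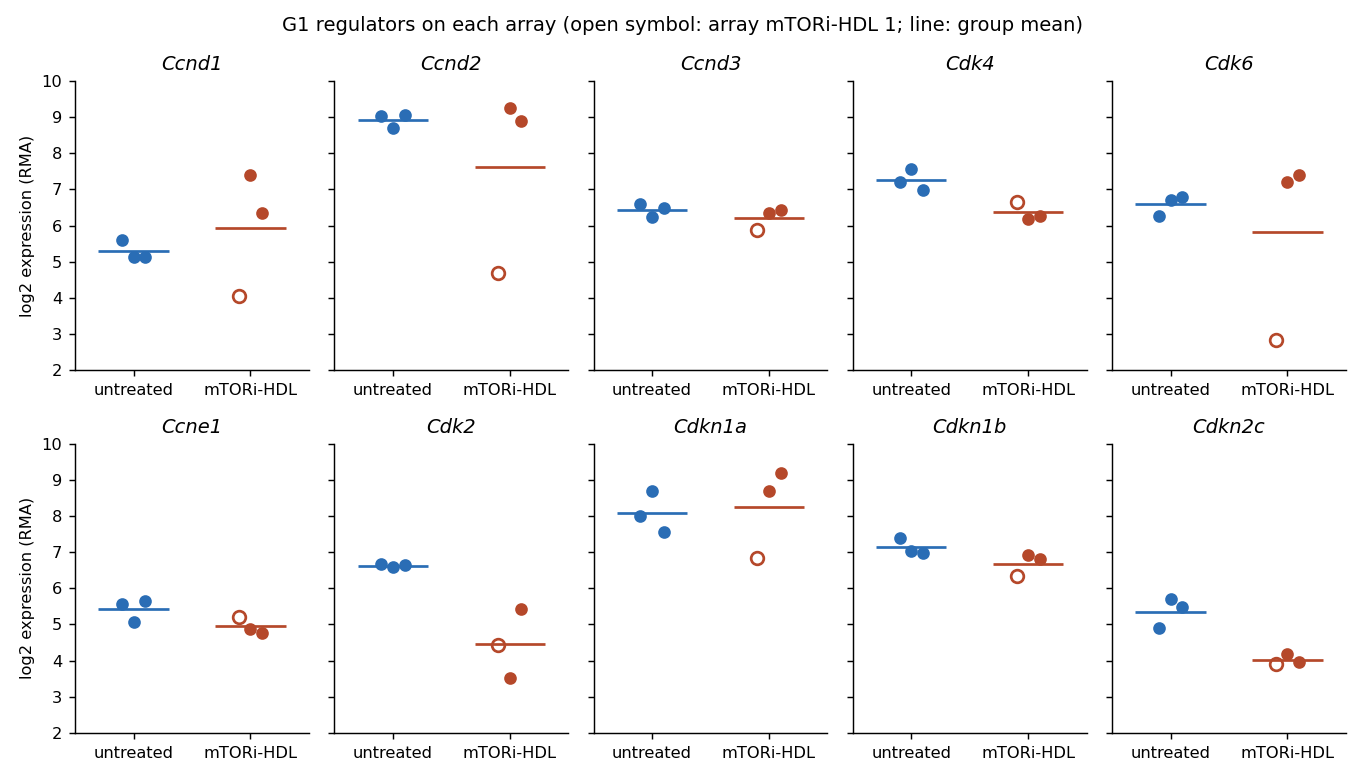
Log2 expression (RMA) of the 10 G1 regulators on each of the 3 untreated (blue) and 3 mTORi-HDL (red) arrays, with the group mean as a line and array mTORi-HDL 1 as an open symbol. Cdk2, Cdk4 and Cdkn2c lie lower on every treated array, while Ccnd1, Ccnd2 and Cdk6 have their lowest value on mTORi-HDL 1 and values near or above the untreated ones on the other treated arrays.

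Among the D-type cyclins, Ccnd1 was the member that stood highest on treated arrays 2 and 3 relative to the controls. Its log2 levels were 4.06, 7.40 and 6.35 on mTORi-HDL 1, 2 and 3 and 5.61, 5.12 and 5.13 on the untreated arrays. Treated arrays 2 and 3 thus lay above every untreated array and mTORi-HDL 1 below every one. Over all arrays this gave a log2 fold change of 0.65 ± 0.77 (SE; limma, adjusted p = 0.893). Without mTORi-HDL 1 it was 1.59 ± 0.36, a 3.01-fold higher level (limma, unadjusted p = 0.00333, adjusted p = 0.367), with a gap of 0.74 between the groups. That difference has 2 treated arrays behind it, 1 of them at 7.40 and the other at 6.35.

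Ccnd2, the D-type cyclin of many haematopoietic cells, had log2 levels of 4.70, 9.25 and 8.90 on the treated and 9.03, 8.70 and 9.05 on the untreated arrays. Only mTORi-HDL 1 differed from the others, by -4.23 from the untreated mean. Its log2 fold change was -1.31 ± 1.10 (SE) with that array and 0.15 ± 0.24 without it (95% interval -0.42 to 0.73; limma, adjusted p = 0.890 and 0.955), so its direction depended on 1 array. Ccnd3, the D-type cyclin used in lymphocyte development, varied least of all members, from 5.89 to 6.61 over the 6 arrays. It lay at 5.89, 6.35 and 6.42 on treated and at 6.61, 6.24 and 6.48 on untreated arrays, and the groups overlapped. Its log2 fold change was -0.22 ± 0.28 with all arrays (limma, adjusted p = 0.897) and -0.06 ± 0.22 without mTORi-HDL 1 (95% interval -0.59 to 0.47), and quantile normalization turned it to 0.08 and cyclic loess to 0.19.

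Whether the 2 kinases that pair with D-type cyclins moved by unequal amounts depended on mTORi-HDL 1. The change of Cdk6 minus Cdk4 was 0.11 with all arrays and 1.74 without that array. Cdk4 had log2 levels of 6.65, 6.17 and 6.28 on the treated arrays and of 7.21, 7.57 and 6.99 on the untreated arrays. Every treated array lay below every untreated array, with a gap of 0.34. Treated samples differed by a log2 fold change of -0.89 ± 0.29 (SE), a 1.85-fold lower level (limma, unadjusted p = 0.0159, adjusted p = 0.890), and -1.03 ± 0.25 without mTORi-HDL 1 (adjusted p = 0.408). Its unadjusted p was no longer under 0.05 after quantile normalization (-0.49) or cyclic loess (-0.41), with the trended, robust variance model, or without mTORi-HDL 2 (-0.79) or untreated 2 (-0.73). For Cdk4, mTORi-HDL 1 was the treated array nearest to the controls.

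Cdk6, the second D-cyclin kinase and an abundant one in haematopoietic cells, had log2 levels of 2.84, 7.21 and 7.40 on the treated arrays. On the untreated arrays it had 6.27, 6.71 and 6.80. mTORi-HDL 1 lay far below all other arrays and below the median gene of its own array (4.38), while the other treated arrays lay above every untreated array by at least 0.41. Cdk6 had a log2 fold change of -0.78 ± 1.12 with all arrays (limma, adjusted p = 0.904) and 0.71 ± 0.25 without mTORi-HDL 1 (unadjusted p = 0.0262, adjusted p = 0.611), so its direction depended on that array.

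Cdk2, the kinase of cyclins E and A, showed the largest difference of the 10 members. Its log2 levels were 4.44, 3.51 and 5.44 on the treated arrays. On the untreated arrays they were 6.66, 6.59 and 6.64. The untreated arrays lay within an SD of 0.03, the treated ones within an SD of 0.96, and a gap of 1.15 separated the groups. The log2 fold change was -2.16 ± 0.47 (SE; 95% interval -3.27 to -1.06), a 4.48-fold lower level, and Cdk2 ranked 66 among 22180 genes by p (limma, unadjusted p = 0.00215, adjusted p = 0.696). Without mTORi-HDL 1 it was -2.15 ± 0.52 (unadjusted p = 0.00487, adjusted p = 0.408). On mTORi-HDL 2 the level lay below the median gene of that array (4.06), so the size of the difference there may be limited by background.

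Ccne1, the cyclin partner of CDK2, had log2 levels of 5.22, 4.87 and 4.76 on the treated and 5.58, 5.07 and 5.64 on the untreated arrays. The groups overlapped through mTORi-HDL 1 and untreated 2. Its log2 fold change was -0.48 ± 0.29 (SE; limma, adjusted p = 0.890), and without mTORi-HDL 1 the groups lay apart by 0.20 with a fold change of -0.62 ± 0.26 (unadjusted p = 0.0491, adjusted p = 0.711).

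Of the inhibitors, Cdkn2c (p18) was lower in treated samples. It had log2 levels of 3.90, 4.19 and 3.96 on the treated and of 4.89, 5.71 and 5.47 on the untreated arrays. The treated values agreed within an SD of 0.15, lay at or below the median gene of the arrays except on mTORi-HDL 2, and were separated from the untreated values by 0.70. The log2 fold change was -1.34 ± 0.30 (SE), a 2.54-fold lower level (limma, unadjusted p = 0.00262, adjusted p = 0.696), and -1.28 ± 0.30 without mTORi-HDL 1 (adjusted p = 0.378). Cdkn2c moved in the same direction as Cdk4, a kinase that its product inhibits. Cdk6, which p18 also inhibits, had -0.78 with all arrays and 0.71 without mTORi-HDL 1.

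Cdkn1b, which encodes p27, was lower on each treated array by a small margin. Its log2 levels were 6.33, 6.91 and 6.81 on the treated and 7.40, 7.02 and 6.99 on the untreated arrays. The groups were separated by 0.08, less than the SD of either group (0.31 and 0.23). The log2 fold change was -0.46 ± 0.29 (limma, adjusted p = 0.890) and -0.28 ± 0.23 without mTORi-HDL 1 (95% interval -0.83 to 0.28), and cyclic loess turned it to 0.03.

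Cdkn1a, which encodes p21 and is a target of p53, had log2 levels of 6.85, 8.70 and 9.18 on the treated arrays. On the untreated arrays it had 7.99, 8.70 and 7.56, so the groups overlapped with and without mTORi-HDL 1. Cdkn1a had a log2 fold change of 0.16 ± 0.62 (limma, adjusted p = 0.964) with all arrays and 0.85 ± 0.37 without mTORi-HDL 1 (95% interval -0.03 to 1.74; adjusted p = 0.730). Leaving out mTORi-HDL 2, mTORi-HDL 3 or untreated 3 turned the sign (-0.07, -0.31 and -0.11).

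**Figure D2:**
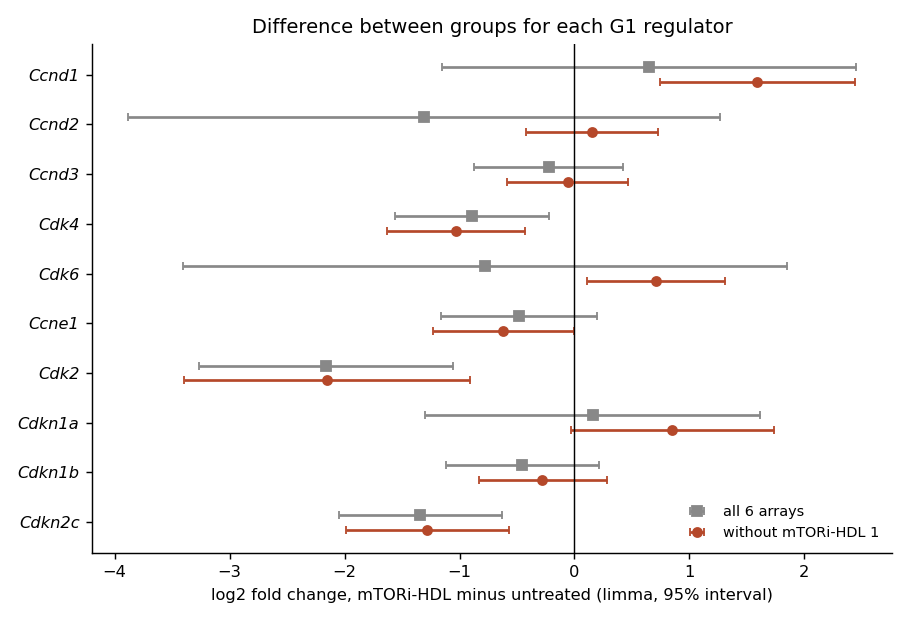
Log2 fold change of each G1 regulator, mTORi-HDL minus untreated, with its 95% interval from limma, over all 6 arrays (grey squares) and without mTORi-HDL 1 (red circles). Cdk2, Cdkn2c and Cdk4 lie below 0 in both, and Ccnd1 and Cdk6 lie above 0 without mTORi-HDL 1, at 1.59 and 0.71; none passed adjustment over all genes.

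In the exact two-sided permutation test over the 6 arrays, the smallest p that 3 against 3 allows is 0.1. Cdk2, Cdk4, Cdkn1b and Cdkn2c reached that value, and the other members had p of 0.2 to 1. A gene reaches it when its groups do not overlap, so this repeats the count of such members given above. Of all genes, 5.53% lay apart and lower and 5.37% apart and higher. Ordered by log2 fold change with all arrays the members ran from Cdk2 (-2.16), Cdkn2c (-1.34), Ccnd2 (-1.31), Cdk4 (-0.89), Cdk6 (-0.78), Ccne1 (-0.48), Cdkn1b (-0.46) and Ccnd3 (-0.22) to Cdkn1a (0.16) and Ccnd1 (0.65). The 95% intervals of neighbours in this order overlapped throughout. Without mTORi-HDL 1 the order was Cdk2 (-2.15), Cdkn2c (-1.28), Cdk4 (-1.03), Ccne1 (-0.62), Cdkn1b (-0.28), Ccnd3 (-0.06), Ccnd2 (0.15), Cdk6 (0.71), Cdkn1a (0.85) and Ccnd1 (1.59). For Cdk2, Cdkn2c, Cdk4, Ccne1, Ccnd3 and Cdkn1b the values with and without that array differed by at most 0.18, while for Ccnd1, Ccnd2, Cdk6 and Cdkn1a mTORi-HDL 1 alone moved them by 0.70 or more.

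Whether related members moved by unequal amounts was examined in 8 pairs, as the log2 difference between both genes within an array, relative to the untreated mean of that difference. Ccnd1 against Ccnd2 lay at 3.0, 1.78 and 1.09 on mTORi-HDL 1, 2 and 3 and between -0.27 and 0.21 on the untreated arrays. On mTORi-HDL 1 both genes lay near that array's median gene (4.06 and 4.70 beside 4.38), so the value of 3.0 may hold little signal and follows how far above that level each gene lay in the controls. On the other treated arrays Ccnd1 was above its untreated mean and Ccnd2 near its own. The mean change was 1.96 (exact permutation p = 0.1, the smallest possible; 0.4 after Benjamini-Hochberg adjustment over the 8 pairs) and 1.44 without mTORi-HDL 1. Ccne1 against Cdk2 lay at 1.98, 2.55 and 0.52 on the treated and between -0.33 and 0.21 on the untreated arrays, with a mean change of 1.68 (exact permutation p = 0.1, adjusted 0.4). Cdk2 lay near or below the median gene on mTORi-HDL 1 and 2, so the sizes of 1.98 and 2.55 may be limited by background.

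Cdk6 against Cdk4 lay at -3.15, 1.70 and 1.78 on the treated arrays and between -0.27 and 0.47 on the untreated arrays. On mTORi-HDL 2 and 3 the difference had moved toward Cdk6. On mTORi-HDL 1 Cdk6 lay at 2.84, well below that array's median gene, so the value of -3.15 gives no size for this pair. The mean change was 0.11 with all arrays (exact permutation p = 1) and 1.74 without mTORi-HDL 1 (exact permutation p = 0.1, adjusted 0.16). Cdkn1a against Cdkn2c had a mean change of 1.5 (exact permutation p = 0.3) and, without mTORi-HDL 1, of 2.14, with groups that then did not overlap. Cdkn2c lay near the median gene on all treated arrays, which limits the sizes of its pairs. The remaining 4 pairs overlapped between groups with all arrays, at exact permutation p of 0.2 to 0.9. Without mTORi-HDL 1, 3 of these 4 no longer overlapped: Ccnd1 against Ccnd3 had a mean change of 1.65 (exact permutation p = 0.1, adjusted 0.16), Cdkn1a against Cdkn1b of 1.13 and Cdkn1b against Cdkn2c of 1.01 (exact permutation p = 0.2, adjusted 0.229, for both). Ccnd2 against Ccnd3 still overlapped, at 0.21. With these 5 arrays 0.1 is again the smallest possible p, and groups lie apart more easily. Of single genes, 12.5% lay apart and lower and 9.75% apart and higher without mTORi-HDL 1. The adjusted value is 0.16 because several pairs share that smallest p, so it is no stronger evidence than the 0.4 with all arrays.

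**Figure D3:**
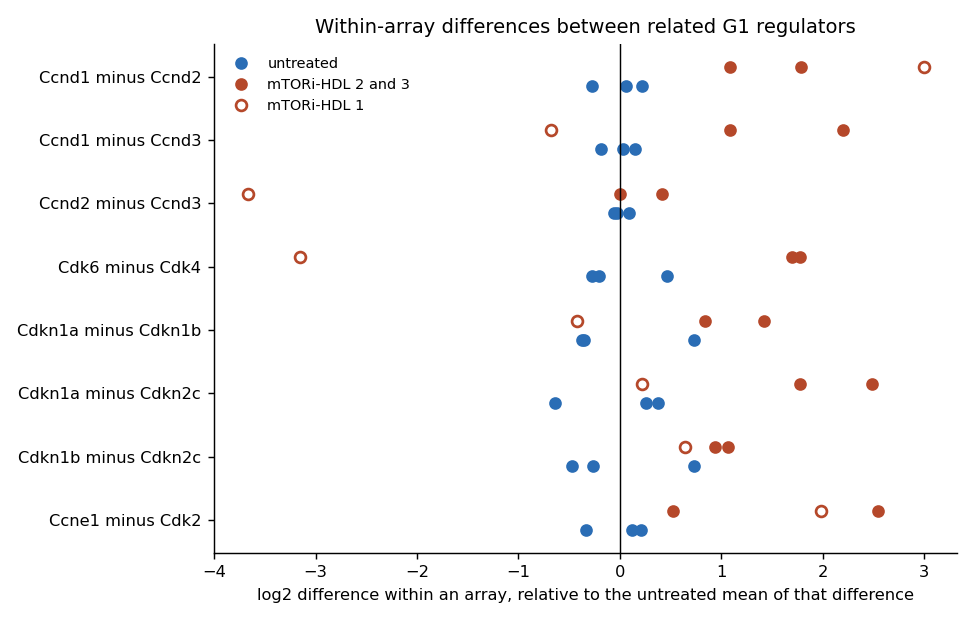
Log2 difference between 2 related G1 regulators within an array, shown relative to the untreated mean of that difference, for 8 pairs on untreated arrays (blue), mTORi-HDL 2 and 3 (red) and mTORi-HDL 1 (open). For Ccnd1 minus Ccnd2 and Ccne1 minus Cdk2 all 3 treated arrays lie to the right of the untreated ones, at 1.09 to 3.0 and 0.52 to 2.55; for Cdk6 minus Cdk4 mTORi-HDL 1 lies at -3.15 and the others at 1.70 and 1.78. The values of 3.0, 2.55 and -3.15 each involve a gene near or below its array's median gene and may be set by background.

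The genes around these members were read from lists of the pathway. Downstream, the E2F target genes of the G1-S step were lower together: all 26 measured were lower in treated samples, with a median log2 fold change of -1.20 beside 0.08 over all genes, of which 41.8% were lower. Of the 26, 13 had an unadjusted p under 0.05 and 0 passed over all genes, of which 3.07% were lower at that p. Without mTORi-HDL 1 all 26 were again lower, the median was -0.76 and 12 had an unadjusted p under 0.05. Over all genes 53.4% were then lower, and 3.51% lower at that p. Mcm4, a subunit of the replicative helicase, had log2 levels of 4.16, 6.17 and 6.55 on treated and of 8.02, 7.71 and 7.91 on untreated arrays. Cdc45, another part of that helicase, Pola1 of DNA polymerase alpha and Chaf1a of chromatin assembly had log2 fold changes of -1.74, -1.45 and -1.51. The T cell marker list described above was lower on the same arrays, and its part in these differences was not tested.

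Of 18 genes of the G2 and M phases measured, all 18 were lower, with a median of -1.78 and 14 at an unadjusted p under 0.05 (0 passed over all genes; all 18 lower, -1.60 and 13 without mTORi-HDL 1). Over all genes 41.8% were lower and 3.07% lower at that p, and 53.4% and 3.51% without mTORi-HDL 1. The log2 fold changes of the spindle motor Kif11 and of the mitotic genes Ube2c, Bub1b and Cenpe were -3.07, -2.24, -2.20 and -2.11. Cyclin A2 (Ccna2), which joins CDK2 in S phase, had log2 levels of 4.28, 6.50 and 5.17 on treated and of 7.76, 7.53 and 7.92 on untreated arrays. Its log2 fold change was -2.42 ± 0.54 (SE; limma, adjusted p = 0.696) and -1.90 ± 0.40 without mTORi-HDL 1. In the list of 7 other inhibitors and G1-S cyclins it and the CDK-associated phosphatase Cdkn3 (-1.19) were the 2 genes at an unadjusted p under 0.05; Cdkn2b (p15) and Ccna1 had -0.44 and -0.33.

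CDK4 and CDK6 act through pocket proteins and E2F factors. The list of these and of the DP partners also held Lin9, Lin37, Lin52, Lin54 and Mybl2, which belong to none of these families and all had a lower mean. Of its 18 measured genes, 16 had a lower mean where 41.8% of all genes did, with a median of -0.70. Of the 18, 2 had an unadjusted p under 0.05 in limma's test and 0 passed adjustment over all genes. Over all genes 3.07% were lower with an unadjusted p under 0.05 on all arrays. Without mTORi-HDL 1, 13 of the 18 were lower where 53.4% of all genes were, with a median of -0.32. Tfdp1, the DNA-binding partner of E2F proteins, had log2 levels of 4.88, 6.62 and 5.81 on treated and of 7.59, 7.99 and 8.56 on untreated arrays. Its log2 fold change was -2.28 ± 0.49 (SE; limma, adjusted p = 0.696). Rbl2, the pocket protein p130, had -1.74, E2f4 -1.56 and E2f3 -0.95, which became -1.08, -1.20 and -0.60 without mTORi-HDL 1. Rb1 itself had levels of 4.12, 8.25 and 8.49 on treated and of 8.25 ± 0.21 on untreated arrays (SD, n = 3), so its difference of -1.30 rested on mTORi-HDL 1, and its dimmer probe set gave 1.12.

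At an unadjusted p under 0.05, 3.07% of all genes lay lower and 1.57% higher with all arrays. Enzymes that switch CDKs on or off gave 1 gene at that level among 8 measured. This was Cdc25b, a phosphatase that activates CDKs, at 4.21, 3.91 and 4.04 on treated and 5.28, 5.77 and 5.83 on untreated arrays. Its log2 fold change was -1.57 ± 0.28 (SE; limma, adjusted p = 0.471), and -1.65 ± 0.25 without mTORi-HDL 1. Cdc25c, the CDK-activating kinase Cdk7 and its cyclin Ccnh had -0.83, -0.71 and -0.70, and Ccnh had -0.25 without mTORi-HDL 1. Mnat1, the third subunit of that kinase, had 0.53 with all arrays and overlapped; without mTORi-HDL 1 it had 0.96 with groups apart (limma, unadjusted p = 0.00481, adjusted p = 0.408). The list's median of -0.71 became -0.04 without mTORi-HDL 1. Among 13 genes of the ubiquitin ligases that degrade G1 regulators, 10 lay lower (2 with an unadjusted p under 0.05) and 3 higher (1 at that level). Over all genes 41.8% lay lower. The median of these 13 was -0.81, and -0.11 without mTORi-HDL 1. Skp2, the ligase subunit that targets p27, had log2 levels of 4.58, 4.08 and 3.80 on treated and 4.69, 5.26 and 4.94 on untreated arrays, and its cofactor Cks1b had a log2 fold change of -0.76. Without mTORi-HDL 1 Skp2 and Cks1b had -1.02 and -1.17. Dtl of the CRL4 ligase had -0.85 and Fbxo4, reported as a cyclin D1 ligase subunit, had 0.86 (0.51 without mTORi-HDL 1).

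Upstream, the 14 measured inducers and antagonists of D cyclins were mixed, 9 lower and 5 higher, where 41.8% of all genes were lower. Fos, an immediate-early factor that induces cyclin D1, had log2 levels of 5.89, 7.33 and 7.99 on treated and of 5.69, 5.55 and 5.50 on untreated arrays. All 3 treated arrays lay above the untreated ones, mTORi-HDL 1 by the least, and the log2 fold change was 1.49 ± 0.51 (SE; limma, adjusted p = 0.890) and 2.08 ± 0.26 without mTORi-HDL 1. Stat5b, a cytokine-activated factor, had -1.14, and Stat3 and the MYC antagonist Mxi1 had -1.52 and -2.23, which became -0.21 and -0.82 without mTORi-HDL 1, while the dimmer probe set of Mxi1 gave -0.11 with all arrays. Myc lay at 5.36, 8.63 and 8.27 on treated and at 7.87 ± 0.39 on untreated arrays (SD, n = 3). Myc differed by -0.45 (log2) with all arrays and by 0.58 ± 0.29 (SE) without mTORi-HDL 1 (limma, adjusted p = 0.780), where mTORi-HDL 3 lay only just above the highest untreated array (8.20).

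Among 15 measured genes of quiescence and of FOXO or p53 regulation, 9 were lower and 6 higher, with 0 at an unadjusted p under 0.05 in limma's test and a median of -0.35. Over all genes 41.8% were lower, and at that p 3.07% were lower and 1.57% higher. Smad3, Foxo1, Tob1 and Foxo3 differed by -0.56, -0.64, -0.48 and 0.54 on the log2 scale. Foxo1 and Foxo3 had -0.26 and 0.29 without mTORi-HDL 1, and the dimmer probe set of Foxo1 gave -0.14 with all arrays. Of 16 measured p53 targets other than Cdkn1a, 11 were lower and 5 higher, with a median of -0.16 and 1 at an unadjusted p under 0.05. This was Sesn1, an inhibitor of mTOR complex 1, at -1.12, while Tnfrsf10b, Ddit4 and Eda2r had -0.48, -1.35 and 0.47 (Eda2r 0.19 without mTORi-HDL 1). Without mTORi-HDL 1 the medians of these lists were -0.10 and -0.19.

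**Figure D4:**
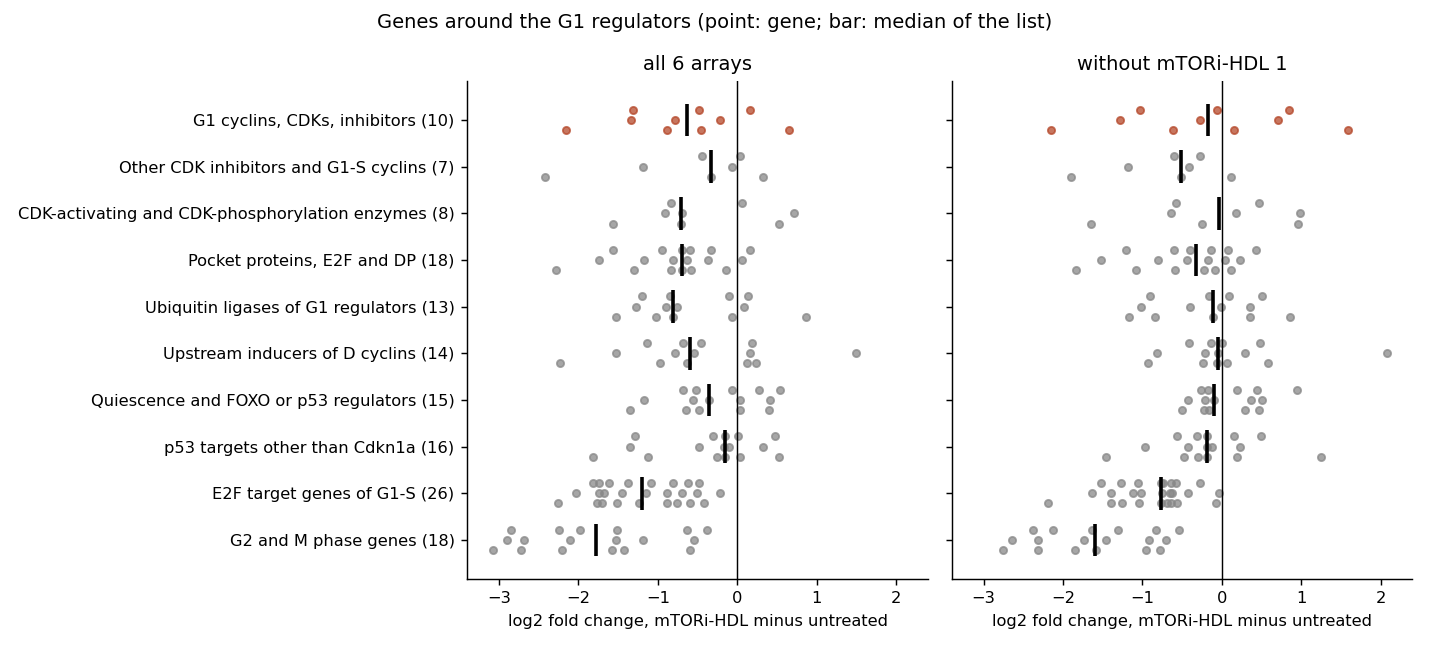
Log2 fold changes, mTORi-HDL minus untreated, of the G1 regulators (red) and of genes in 9 surrounding lists (grey), over all 6 arrays (left) and without mTORi-HDL 1 (right), each point a gene and each bar the median of the list, with the number of genes in brackets. The E2F targets and the G2 and M genes lie below 0 in both panels, with medians of -1.20 and -1.78 on the left and -0.76 and -1.60 on the right, while the G1 regulators spread to both sides.

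The genes with patterns closest to those of Cdk2 and Ccnd1, the lower and the higher member with the smallest p, were sought among the brighter genes (at or above the median gene). Likeness was the root mean square difference of log2 values centred on each gene's own mean over the 6 arrays, 3 of them treated and 1 of those mTORi-HDL 1. For Cdk2 these were the histone chaperone Asf1b, the transcription elongation inhibitor Hexim1 and the kinetochore gene Spc24, each at a difference of 0.37. Asf1b lay at 5.31, 4.21 and 5.6 on treated and at 6.51, 6.63 and 7.17 on untreated arrays. For Ccnd1 they were the nucleoside transporter Slc29a3 (0.19), Tapt1 (0.22) and the phosphoinositide 3-kinase subunit Pik3cb (0.25). Slc29a3 lay at 4.07, 7.25 and 6.76 on treated and at 5.91, 5.29 and 5.09 on untreated arrays.

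Markers of several cell types moved with the treated arrays. Without mTORi-HDL 1 all 11 macrophage markers measured were higher in treated samples (7 at an unadjusted p under 0.05), on the same 2 arrays on which Ccnd1 and Cdk6 were higher. Over all genes 53.4% then had a lower mean, and 3.47% were higher at that p. On mTORi-HDL 1 the macrophage markers were mixed. Csf1r, the receptor for colony-stimulating factor 1, had log2 levels of 5.00, 8.75 and 9.08 on treated arrays 1, 2 and 3 and of 7.89 ± 0.33 in the controls (SD, n = 3), while Fcgr1 had 8.13, 8.02 and 9.12 beside 6.58 ± 0.61 and C1qc 6.69, 6.56 and 6.47 beside 5.80 ± 0.15. Low values on mTORi-HDL 1 were also seen outside this list and the G1 regulators: Ccng1, a p53 target, had 3.50 there and 9.77 and 9.58 on the other treated arrays, and Cd4 had 3.08, 6.32 and 6.41.

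Of the 10 fibroblast and mural cell markers 8 were higher without mTORi-HDL 1, 5 of them at an unadjusted p under 0.05. Over all genes 53.4% were then lower, and at that level 3.51% were lower and 3.47% higher. The matrix gene Dcn had a log2 fold change of 2.56 (limma, unadjusted p = 0.000355, adjusted p = 0.172). Postn, Col1a2, Lum and the pericyte gene Rgs5 had 2.68, 2.26, 1.53 and 1.21. Col1a1, Pdgfra and Col3a1 differed little, at 0.38, 0.20 and 0.08, and Pdgfrb was lower at -0.22, so the list did not rise as a whole. Rgs5 lay near or below the median gene, at 4.24, 4.64 and 4.15 on treated and 3.11, 3.09 and 3.36 on untreated arrays. The summed level of that list was 9.28 to 11.10 on treated and 11.14 to 11.30 on untreated arrays. Thy1 was its brightest marker on all arrays but mTORi-HDL 1, so the sum there mainly follows that gene. Thy1 lay at 6.73, 10.53 and 10.02 on treated and at 11.18, 10.97 and 11.05 on untreated arrays. Of 7 dendritic cell markers 5 were higher (3 at that level), among them Xcr1 at 1.69, Flt3 at 1.45 and Batf3 at 1.44. Itgae was lower at -0.72 with groups apart, and Cd209a, Ccr7 and Zbtb46 had -0.11, 0.04 and 0.10. The summed level of the 7 was 9.01 to 9.61 on treated and 8.74 to 8.91 on untreated arrays. All 14 T cell markers were lower (12 at that level), and so were all 6 B cell markers (0 at that level in limma's test), whose summed level was 8.31 to 9.78 on treated and 9.89 to 10.35 on untreated arrays. Of 8 NK cell markers 6 were lower, and their summed level was 11.62 to 12.43 on treated and 12.48 to 12.87 on untreated arrays. Among 5 monocyte, 7 neutrophil, 7 endothelial and 8 cardiomyocyte markers, 3, 4, 5 and 5 were higher. The summed level of the cardiomyocyte list was 8.11 to 8.86 on treated and 7.12 to 7.99 on untreated arrays. The sums of the monocyte, neutrophil and endothelial lists overlapped between groups. Of the cardiomyocyte markers, Tnnc1 and Tnnt2 were higher at 1.66 and 1.56 with groups apart, while Actc1 and Myh6 had -0.28 and -0.14. No marker was at 0 on any array, but neither was any probe set, so this does not show that a marker was detected. The part of these cell types in the differences of Ccnd1, Cdk6, Cdk2, Cdk4 and Cdkn2c was not tested.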

How the data were processed

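The authors deposited log2 values for 41345 probe sets on 6 arrays. The submitters' processing notes name Affymetrix Expression Console and RMA without versions. Genome build and probe-set filters are not given in the sources used here. Precision is limited by the 6 arrays.

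In the platform annotation 23521 probe sets had 1 symbol, 1814 several and 16010 none. Only the first were used, the brightest per gene, which left 22180 genes. The group comparison used lmFit and eBayes of limma 3.58.1 (R 4.3.3) with group as the only term, two-sided, with Benjamini-Hochberg adjustment over all genes; the test was tried on simulated data. Fold changes are treated minus untreated. Single values were also tested by exact permutation. Members and lists were chosen with earlier results of these data known. Besides the 10 members, the text names up to 4 genes per list with the smallest p and 3 genes of most similar pattern for 2 members. It also names Myc, Rb1, Mnat1, Ccng1 and marker genes, chosen after their values were seen. Of the listed genes, those on probe sets of several genes and some others were not analysed here.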

Additional observations from a re-analysis of the deposited data

How the results depend on the processing

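The 17 alternatives changed the scaling, the filter, the variance model, the arrays or the probe sets. Under all 17, Cdk2 (-2.65 to -1.69), Cdkn2c (-1.58 to -1.17), Cdk4 (-1.05 to -0.41) and Ccne1 (-0.66 to -0.34) were lower in treated samples, and no member passed an adjusted p of 0.05 in limma's test. Members at an unadjusted p under 0.05 numbered 3 as reported and ranged from 2 to 6; Cdk4 was not among them with quantile normalization, cyclic loess, the trended, robust variance model, or without mTORi-HDL 2 or untreated 2. The count of genes past 0.05 was 0 except with array weights (1 gene), and 1 gene passed at an adjusted p of 0.2. With 1 array left out at a time it was 0. Genes at an unadjusted p under 0.05 numbered 1029 as reported, 1768 with array weights, 635 of the 11090 genes at or above the median brightness, and 615 (without untreated 3) to 1547 (without mTORi-HDL 1) with 1 array left out. Median centring moved the median of all genes from 0.08 to -0.03. The sign turned for Ccnd3 with quantile normalization (0.08) and cyclic loess (0.19), for Cdkn1b with cyclic loess (0.03) and for Cdk6 with array weights (0.52). Without mTORi-HDL 1 and after quantile normalization Ccnd2 had 0.12 and Cdk6 0.73. Without mTORi-HDL 1 and with the replicate number as a block, but no quantile normalization, they had 0.21 and 0.55, Ccnd3 had 0.03 and 5 of 10 members were lower. Leaving out 1 array at a time gave -0.08 to 1.59 for Ccnd1, -2.12 to 0.15 for Ccnd2, -1.57 to 0.71 for Cdk6 and -0.31 to 0.85 for Cdkn1a. Among pairs, Cdk6 minus Cdk4 turned to -0.40 with quantile normalization and ran from -0.73 to 1.74 with 1 array left out, and Ccnd2 minus Ccnd3 from -1.83 to 0.21. The cause was not tested. Deviations of same-numbered samples from their group means correlated at 0.136, 0.135 and -0.024 across genes for numbers 1, 2 and 3. The highest correlation of each treated array with an untreated array of another number was 0.0363, -0.034 and 0.126. The same number thus gave the higher value for 1 and 2 but not for 3, which does not decide whether the numbers mark pairs. The main comparison did not take them as pairs. With the replicate number as a block over all arrays, 0 genes passed, 1183 had an unadjusted p under 0.05 and 8 of 10 members were lower. No array gives a detection call, so levels near the median gene have an unknown share of background.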
